A study of Rattus norvegicus with 8 samples.

Results

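The nuclear genes of the oxidative phosphorylation system were examined in rat liver after a glucocorticoid, an activator of AMP-activated protein kinase, or both. Members were all probe sets whose single annotated gene symbol begins with Nduf, Uqcr, Atp5 or Cox4 to Cox8, or is Sdha, Sdhb, Sdhc, Sdhd, Cyc1 or Cycs. The rule took 97 of 31042 probe sets, which stand for 87 of 14217 genes with a single symbol. No measured value entered the rule, but it was chosen with earlier results of these data known. The members comprise 34 genes of complex I subunits, 4 of complex II, 8 of complex III, 17 of complex IV and 15 of complex V. The remaining members are 6 assembly factors of complex I, the inhibitor of the ATP synthase Atp5if1, the supercomplex factor Cox7a2l and the pseudogene Cox6c-ps1. A further 9 probe sets that list a member together with another gene were not taken, and among them were those of cytochrome c (Cycs) and of the ring subunits Atp5mc1 and Atp5mc2, so these genes were not analysed here.

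Oxidative phosphorylation is carried out in the inner mitochondrial membrane. Complexes I and II pass electrons from NADH and succinate to ubiquinone, complex III passes them on to cytochrome c, complex IV reduces oxygen, and the proton gradient that complexes I, III and IV build up drives ATP synthesis by complex V. All subunits of complex II and most subunits of the others are encoded in the nucleus and imported, while a small core is encoded and translated inside the mitochondrion, so assembly needs nuclear factors and the mitochondrial ribosome as well as the subunits. In liver the system supplies the ATP for gluconeogenesis, a process that glucocorticoids raise and that AMP-activated protein kinase restrains.

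Liver RNA was measured 8 h after treatment in male Sprague-Dawley animals weighing 180 to 200 g. One group received dexamethasone, a synthetic glucocorticoid, at 1.5 mg/kg into muscle together with AICAR, a nucleoside that activates AMP-activated protein kinase, at 0.7 g/kg into the peritoneum. The other groups received dexamethasone with saline in place of AICAR, AICAR with saline in place of dexamethasone, or saline alone as vehicle. Each of the 4 groups had 2 arrays, and whether the 2 came from different rats is not stated, so each p-value rests on array-to-array spread that may be technical. All values below are log2 values from robust multi-array averaging (RMA), and a difference of 1 on this scale is a doubling. Differences were tested with limma and adjusted by the Benjamini-Hochberg method over all 31042 probe sets. Probe sets with an adjusted p below 0.05 are named as called, and a gene was represented by its probe set with the highest mean. Where an array was left out, 1 remained in its group, and calls over the whole array also became fewer in comparisons with that group. Lost calls in such fits are therefore not particular to the members.

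Arrays of 1 group correlated at 0.997 to 0.998 over all probe sets, and the median SD within groups was 0.0952. Groups of 2 arrays often did not overlap. Of all probe sets, 27% lay wholly above and 27.8% wholly below vehicle after dexamethasone. These shares were 28.5 and 27.6% after AICAR, and 31.8 and 29.8% after the combination. For the combination they were 28.5 and 29% over dexamethasone alone, and 31.8 and 34% over AICAR. Hepatocyte markers, 7 in all, were present at 98 to 104% of the vehicle sum in the treated groups. The summed linear signal of 10 Kupffer cell and macrophage markers ranged from 209 to 219 after dexamethasone plus AICAR, from 2249 to 2498 after dexamethasone and from 5550 to 5647 after AICAR, against 5055 to 5141 in vehicle. All 10 fell after the combination, and 4 of them (Adgre1, Aif1, Cd163 and Cd5l) averaged below 3.84, the lowest of the arrays' lower quartiles. Sinusoidal endothelial markers stood at 69.8, 66.6 and 89% of the vehicle sum after the combination, dexamethasone and AICAR. Lymphocyte markers stood at 51, 64.7 and 92.4%, and stellate cell markers at 76.9, 85.2 and 129%, in the same order. A sum follows its brightest genes. Of 8 stellate cell markers, 4 were called higher and 2 lower after the combination. After dexamethasone 2 were higher and 2 lower, and after AICAR 6 higher and 0 lower. Of the 7 hepatocyte markers, 2 were higher and 1 lower after the combination. In whole liver, fewer cells of a type and less RNA per cell cannot be told apart. The 3′ minus 5′ difference of the beta-actin control probe sets, a sign of RNA quality, averaged 1.80 ± 0.0415 after the combination, 2.04 ± 0.0074 after dexamethasone and 1.82 ± 0.033 after AICAR, against 2.23 ± 0.0411 in vehicle (SD, n = 2 each). That of GAPDH averaged 0.33 ± 0.024, 0.42 ± 0.0247 and 0.39 ± 0.0236 in the same order, against 0.61 ± 0.0025 in vehicle. The part of these shifts in the results below was not tested.

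Dexamethasone alone raised subunit genes of complexes I, II, III and V, and few of complex IV. Of the 97 probe sets, 40 were higher and 2 were lower than in vehicle, where calls over the whole array were 8.67% higher and 9.77% lower (18.4% in all). The median difference of the members was 0.22 on the log2 scale, and that of all probe sets was 9e-04. By gene, 38 of 87 were called higher and 1 lower, against 8.37% and 14.3% of all genes with a single symbol. Members are mostly bright: 86 of the 97 lay above the median mean of all probe sets, and among the bright probe sets of the whole array 13.1% were called higher and 15.9% lower (29.0% in all). The complexes did not contribute equally. Complex V had 11 of 15 genes higher and a median difference of 0.38, complex III had 5 of 8 (median 0.38), complex II had 3 of 4 (median 0.33), complex I had 16 of 34 (median 0.23) and complex IV had 3 of 17 (median 0.10). None of the 6 assembly factors of complex I was called by limma (median 0.08), and 1 had an unadjusted p under 0.05. No test of the difference between complexes was made. Calls of members, complex I and complex IV became fewer whenever 1 array was left out, as did those of the whole array. No complex IV call held through every removal. The median then ran from 0.2034 to 0.2439 for the members and from 0.2158 to 0.2725 for complex I. That of complex IV ran from 0.0804 to 0.1415. With the trended and robust prior 23 genes of complex I were higher and 1 lower, and 8 of complex III and 9 of complex IV were higher. That prior called 10.9% of all probe sets higher and 23.4% in all, and its share among bright probe sets was not counted.

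**Figure D1:**
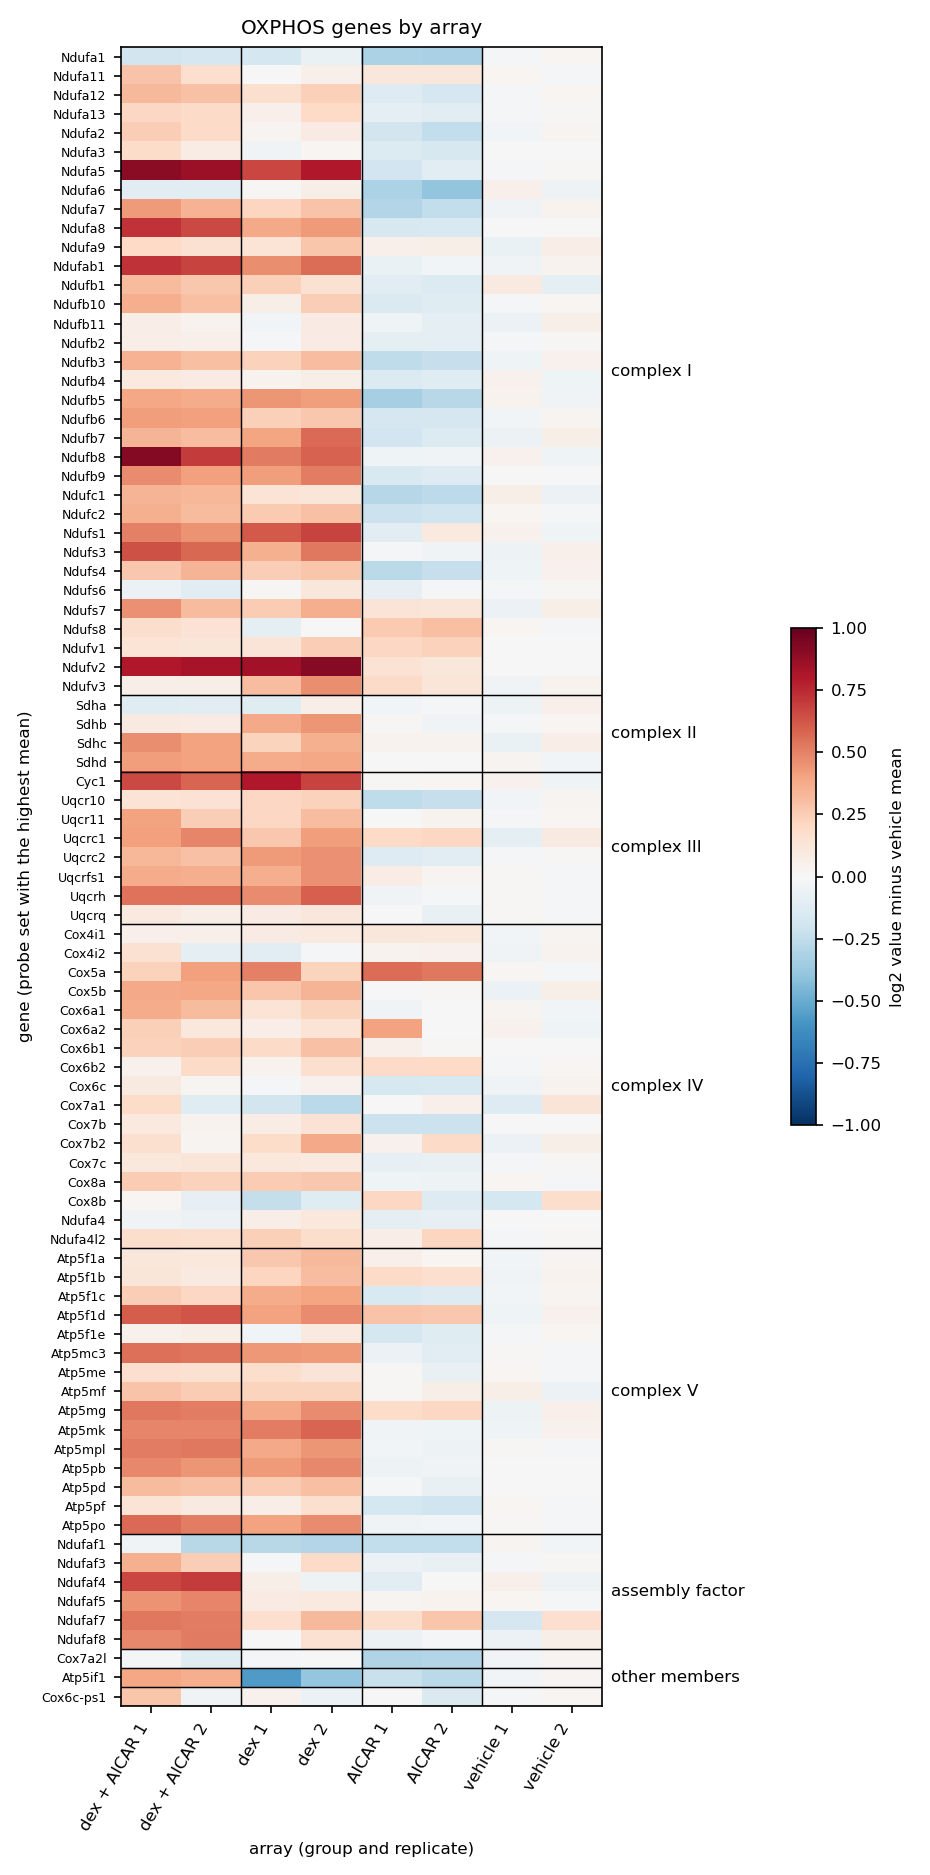
Log2 value minus the vehicle mean (colour, from -1 to 1) for the 87 member genes (rows, grouped by complex) on the 8 arrays (columns, 2 per group). The arrays that received dexamethasone are red over most of complexes I, II, III and V, and Ndufaf4, Ndufaf5, Ndufaf8 and Atp5if1 are higher after the combination than after dexamethasone alone.

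The combination raised subunit genes of complexes I, II, III and V, few of complex IV, and 5 of the 6 assembly factors of complex I. After dexamethasone plus AICAR, 51 of 97 probe sets were higher than in vehicle and 0 lower. The whole array had 13.3% called higher and 13.6% lower (26.9% in all). Among its bright probe sets, 21.3% were called higher and 21.4% lower (42.7% in all). The members' median difference was 0.29, against 0.0072 for all probe sets. Called genes were 20 of 34 in complex I (median 0.32), 2 of 4 in complex II (0.25), 6 of 8 in complex III (0.34), 4 of 17 in complex IV (0.11), 10 of 15 in complex V (0.30) and 5 of 6 among the assembly factors (0.48), against 15.9% of all genes. Complex IV was near the share of bright probe sets called higher, but the 2 are not alike. Its 17 genes include 6 isoforms known from muscle, lung or testis, which read below the median mean and were not called. All 4 calls fell among its other genes. Calls became fewer without any one vehicle, AICAR or combination array, both among the members and over the whole array. In complex IV only the call of Cox5b held through every removal. The median then ran from 0.2486 to 0.2942 for the members and from 0.2826 to 0.3321 for complex I. It ran from 0.0978 to 0.1578 for complex IV and from 0.4006 to 0.5029 for the assembly factors.

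AICAR alone left 4 of 97 probe sets higher and 7 lower than in vehicle, where the whole array had 5.45% higher and 7.47% lower (12.9% in all). Among the bright probe sets these shares were 7.94% and 12.7%. The members' share was 11.3%. It turned with the variance prior: with a trended and robust prior, 11 of 97 were higher and 26 lower, which is 38.1%, against 19.5% of all probe sets. The share of bright probe sets under that prior was not counted. Tested among bright probe sets alone, the members' share was 26.7%, against 32.7%. With gene means it was 18.4%, against 18.3% of all genes. The members' median was -0.04, and its sign turned with the scaling of the arrays: it was 0.0044 after cyclic loess and 0.0065 after centring each array on its brighter probe sets. Centring also moved the split of calls among the members to 5 higher and 4 lower. As deposited, 42.2% of all calls were on the higher side, and 56.1% after centring. The 11 calls became fewer on leaving out any one array, and so did calls over the whole array. No call among the 11 held through every removal. The members' median then ran from -0.0442 to -0.0319.

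**Figure D2:**
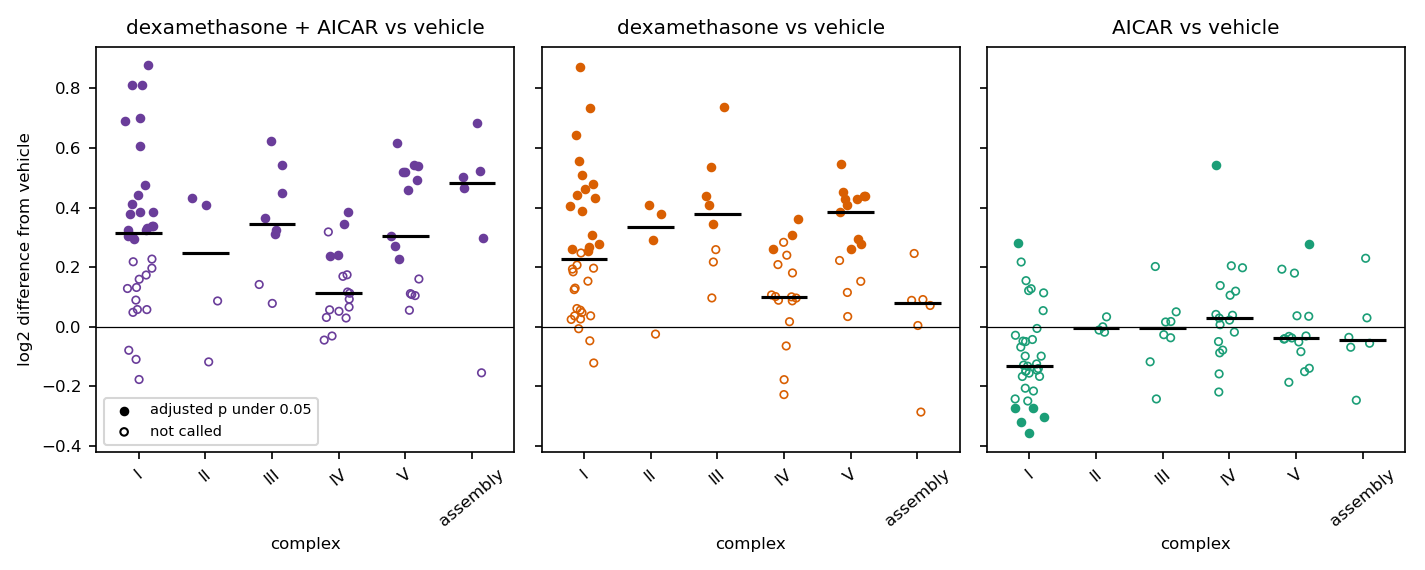
Log2 difference from vehicle (vertical axis) of each member gene by complex (horizontal axis), in 3 panels for dexamethasone plus AICAR, dexamethasone and AICAR. Filled points passed an adjusted p of 0.05 and bars mark medians. The complex I median is 0.32 and 0.23 in the 2 panels with dexamethasone and -0.13 in the AICAR panel, and that of the assembly factors is 0.48, 0.08 and -0.05 in the order of the panels.

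Within complex I, the enzyme that oxidises NADH, the flavoprotein and iron-sulphur subunits of the matrix arm were measured first. Ndufv2, an iron-sulphur core subunit, read 11.67 and 11.68 after dexamethasone plus AICAR, 11.70 and 11.77 after dexamethasone and 11.01 and 10.97 after AICAR, against 10.86 and 10.87 in vehicle. Every array with dexamethasone was above every array without it. The log2 difference was 0.81 ± 0.070 after the combination (SE, limma, adjusted p = 5.38e-05) and 0.87 ± 0.070 after dexamethasone (adjusted p = 6.2e-05), but 0.13 after AICAR (adjusted p = 0.274). Ndufs1, the largest iron-sulphur subunit, was 0.48 higher after the combination and 0.64 higher after dexamethasone, with arrays at 10.69 and 10.63 and at 10.79 and 10.86 against 10.22 and 10.14 in vehicle. Its AICAR arrays, at 10.07 and 10.28, lay to either side of vehicle. Ndufs3 was 0.61 and 0.44 higher, and Ndufs7 0.39 and 0.31 higher, after the combination and after dexamethasone alone. The other core subunits behaved differently. Ndufs8, which carries 2 iron-sulphur clusters, read 9.18 and 9.15 after the combination, 8.92 and 9.0 after dexamethasone and 9.27 and 9.31 after AICAR, against 9.02 and 8.99 in vehicle. It was called after AICAR alone (0.28, adjusted p = 0.0365), a call lost on leaving out any one vehicle, AICAR or combination array (adjusted p up to 0.145). Ndufv1, which binds NADH, was called in none of the comparisons with vehicle, at 0.13, 0.18 and 0.22 after the combination, dexamethasone and AICAR. The dexamethasone call of Ndufs3 was lost without the first vehicle array (0.39, adjusted p = 0.0514). That of Ndufs7 was lost without any one vehicle, dexamethasone or AICAR array (adjusted p up to 0.169), and its combination call without the first vehicle or first combination array (up to 0.0798).

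The accessory subunits of complex I surround the core and stabilise it. Ndufa5 read 10.31 and 10.26 after the combination, 10.07 and 10.21 after dexamethasone and 9.22 and 9.30 after AICAR, against 9.40 and 9.42 in vehicle. Its values with dexamethasone stood clear of all 4 others, and the difference from vehicle was 0.88 ± 0.078 after the combination (limma, adjusted p = 6.5e-05) and 0.73 ± 0.078 after dexamethasone (adjusted p = 0.000305). Ndufb8 read 8.56 and 8.35 after the combination, 8.17 and 8.23 after dexamethasone and 7.60 and 7.61 after AICAR, against 7.69 and 7.60 in vehicle, so that both groups with dexamethasone were above both without. Its differences were 0.81 and 0.56. Ndufab1, the mitochondrial acyl carrier protein, was 0.70 and 0.51 higher after the combination and after dexamethasone alone. In all, 12 of 28 accessory genes were called higher after dexamethasone and 16 of 28 after the combination, and 7 were called after dexamethasone on leaving out the first vehicle or the second dexamethasone array, as were 9 after the combination on leaving out its first array.

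After AICAR alone 25 of the 28 accessory genes were below vehicle, with a median of -0.15, and 5 of them passed the test, where 8.96% of all genes were called lower and 6.22% higher. These were Ndufa1 (-0.32), Ndufa6 (-0.36), Ndufa7 (-0.27), Ndufb5 (-0.30) and Ndufc1 (-0.27). Ndufa6 read 10.91 and 10.83 after AICAR, against 11.27 and 11.18 in vehicle. It lay wholly below vehicle, as did 27.6% of all probe sets. The 6 core genes had a median of 0.12 in the same comparison. The median of complex I after AICAR kept its sign under both rescalings, at -0.08 and -0.09, but the 5 calls fell to 3 under either one, and to 0 on leaving out the first vehicle array or either AICAR array. They were 1 without the second vehicle array, 3 without either dexamethasone array and 2 without either combination array. With the trended and robust prior 16 accessory genes were called lower and 1 higher. That prior called 19.5% of all probe sets after AICAR, with 7.76% called higher.

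Ndufv3 was measured by 2 probe sets that went opposite ways. The brighter one read 10.39 and 10.39 after the combination, 10.64 and 10.79 after dexamethasone and 10.52 and 10.45 after AICAR, against 10.29 and 10.36 in vehicle. The dimmer one read 6.56 and 6.55, 6.16 and 6.34, and 6.89 and 6.84 in the same groups, against 6.77 and 6.72 in vehicle. After dexamethasone the brighter rose by 0.39 and the dimmer fell by 0.49, and both were called (limma, adjusted p = 0.0104 and 0.00339). Adding AICAR to dexamethasone moved each towards vehicle, by -0.33 and by 0.30, and the mean of both probe sets showed no call (-0.05, adjusted p = 0.637, after dexamethasone). The rise of the brighter was not called without the first vehicle or the second dexamethasone array (adjusted p up to 0.0618). Its fall from dexamethasone to the combination was lost without the second dexamethasone array or either combination array. The matching rise of the dimmer was lost without the first dexamethasone array or either combination array. Which transcripts the 2 probe sets read was not tested.

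Complex II, succinate dehydrogenase, also serves the tricarboxylic acid cycle. Sdha, the flavoprotein that oxidises succinate, read 11.10 and 11.11 after the combination, 11.10 and 11.29 after dexamethasone and 11.19 and 11.21 after AICAR, against 11.17 and 11.27 in vehicle. These groups overlapped, apart from the combination, which lay below both AICAR and vehicle, and no comparison was called. Sdhb, the iron-sulphur subunit, read 11.88 and 11.87 after the combination, 12.17 and 12.23 after dexamethasone and 11.80 and 11.75 after AICAR, against 11.77 and 11.81 in vehicle. Dexamethasone alone stood above all other groups. The difference was 0.41 ± 0.070 after dexamethasone (limma, adjusted p = 0.00415) and 0.09 after the combination (adjusted p = 0.429), and the combination was 0.32 below dexamethasone alone (adjusted p = 0.0124). That last call was lost on leaving out the second dexamethasone array or either combination array (adjusted p up to 0.0734), and the interaction of Sdhb was not called (-0.31, adjusted p = 0.0709). The membrane anchors kept their rise in both groups. Sdhc was 0.43 and 0.29 higher, and Sdhd 0.41 and 0.38 higher, after the combination and after dexamethasone alone. The dexamethasone call of Sdhc was lost on leaving out any one array other than the first dexamethasone array (adjusted p up to 0.187).

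Complex III transfers electrons from ubiquinol to cytochrome c through cytochrome c1 (Cyc1) and the Rieske protein (Uqcrfs1). Cyc1 read 11.90 and 11.82 after the combination, 12.04 and 11.91 after dexamethasone and 11.25 and 11.26 after AICAR, against 11.28 and 11.20 in vehicle. The AICAR and vehicle arrays interleaved, and the 4 arrays with dexamethasone lay above them. Cyc1 was 0.62 higher after the combination, with an SE of 0.079. Uqcrh, the hinge protein beside cytochrome c1, was 0.54 higher in both groups, Uqcrfs1 was 0.36 and 0.41 higher, Uqcrc1 0.45 and 0.34 higher, and Uqcrc2 0.31 and 0.44 higher, after the combination and after dexamethasone alone. Both probe sets of Uqcrc2 were called in both comparisons. Uqcrq, the ubiquinone-binding small subunit, was at 0.08 and 0.10 and was not called. The dexamethasone call of Uqcrc1 was lost without the first vehicle or second dexamethasone array (adjusted p up to 0.155), and the combination call of the brighter Uqcrc2 probe set without the first combination array (0.0645).

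Complex IV, cytochrome c oxidase, had 4 of 17 genes higher after the combination and 3 of 17 after dexamethasone. Cox4i1, the common isoform of its regulatory subunit, read 12.30 and 12.29 after the combination, 12.32 and 12.34 after dexamethasone and 12.35 and 12.35 after AICAR, against 12.22 and 12.27 in vehicle. Every treated array lay above vehicle, yet by 0.05, 0.09 and 0.11 on average, and none was called. Cox5b was higher after the combination (0.38) and after dexamethasone (0.31), and so was Cox8a (0.24 and 0.26). Cox6a1 (0.34) and Cox6b1 (0.24) were called after the combination alone. Their values after dexamethasone were 0.18 and 0.24. Cox6c, Cox7b, Cox7c and the associated subunit Ndufa4 were called in neither comparison. Cox5a was read by a dim probe set here, and it was 0.36 higher after dexamethasone and 0.54 higher after AICAR (adjusted p = 0.0446 and 0.0131), with 0.32 after the combination (adjusted p = 0.055). Its AICAR call was lost without any one vehicle or AICAR array (up to 0.0762), and its dexamethasone call without any one array other than the second dexamethasone array (up to 0.205). The dexamethasone call of Cox5b was lost without the first vehicle or second dexamethasone array (up to 0.111). Those of Cox8a were lost without any one vehicle or combination array, and after dexamethasone also without either dexamethasone array (up to 0.14). The calls of Cox6a1 and Cox6b1 were lost without the second vehicle or first combination array, and that of Cox6b1 also without the first vehicle, second combination or either AICAR array (up to 0.0633 and 0.156). The isoforms known from muscle, lung or testis, Cox4i2, Cox6a2, Cox6b2, Cox7a1, Cox7b2 and Cox8b, read between 3.01 and 5.00 on all 8 arrays, below the median mean of 5.25, and none was called in any of the 6 comparisons. At an unadjusted p under 0.05, 1 of these 6 passed after dexamethasone, 1 after AICAR and 0 in each of the other comparisons. Among the other 11 genes of complex IV, 4 were called higher after the combination and 3 after dexamethasone. The mitochondrially encoded COX1 and COX2, which are on the array, were called in none of the 6 comparisons either, and their median difference after the combination was 0.18. With the trended and robust prior 1 of the 2 was called higher after the combination than in vehicle, after dexamethasone and after AICAR, and in the interaction. That prior called 15.2, 12.8, 17.9 and 12% of all probe sets higher, in the same order.

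Of the 15 genes of complex V, the ATP synthase, 10 were higher than vehicle after the combination and 11 after dexamethasone. Atp5mc3, which encodes the ring subunit c, read 13.09 and 13.08 after the combination, 12.98 and 12.97 after dexamethasone and 12.48 and 12.44 after AICAR, against 12.56 and 12.53 in vehicle. The dexamethasone groups stood above the others, by 0.54 and 0.43 over vehicle. Atp5f1d, of the central stalk, read 10.64 and 10.67 after the combination, 10.45 and 10.52 after dexamethasone and 10.32 and 10.31 after AICAR, against at most 10.09 in vehicle. Its treated groups did not overlap vehicle or each other, and each was called, at 0.62, 0.44 and 0.28. The AICAR call was lost on leaving out any one vehicle, AICAR or combination array (adjusted p up to 0.169). The stalk subunits Atp5pb (0.46 and 0.45) and Atp5po (0.54 and 0.44) and the small membrane subunits Atp5mg (0.52 and 0.43), Atp5mk (0.49 and 0.55) and Atp5mpl (0.52 and 0.41) were higher after the combination and after dexamethasone alone. Atp5f1e, Atp5pf and Atp5me, a subunit each of the central stalk, the peripheral stalk and the membrane part, were called in neither, at 0.06, 0.11 and 0.16 after the combination and 0.03, 0.12 and 0.15 after dexamethasone. The values of Atp5po are those of its brighter probe set. Its dimmer probe set did not rise and was not called after dexamethasone (-0.11) or in the combination over AICAR (-0.08). Atp5f1b, the catalytic subunit, was 0.26 higher after dexamethasone (adjusted p = 0.0387) and at 0.10 after the combination (adjusted p = 0.353), and Atp5f1a was 0.29 higher and at 0.11 (adjusted p = 0.0192 and 0.31). The call of Atp5f1b was lost without any one of the 8 arrays (up to 0.161), and that of Atp5f1a without either vehicle array or the second dexamethasone array (up to 0.0911).

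**Figure D3:**
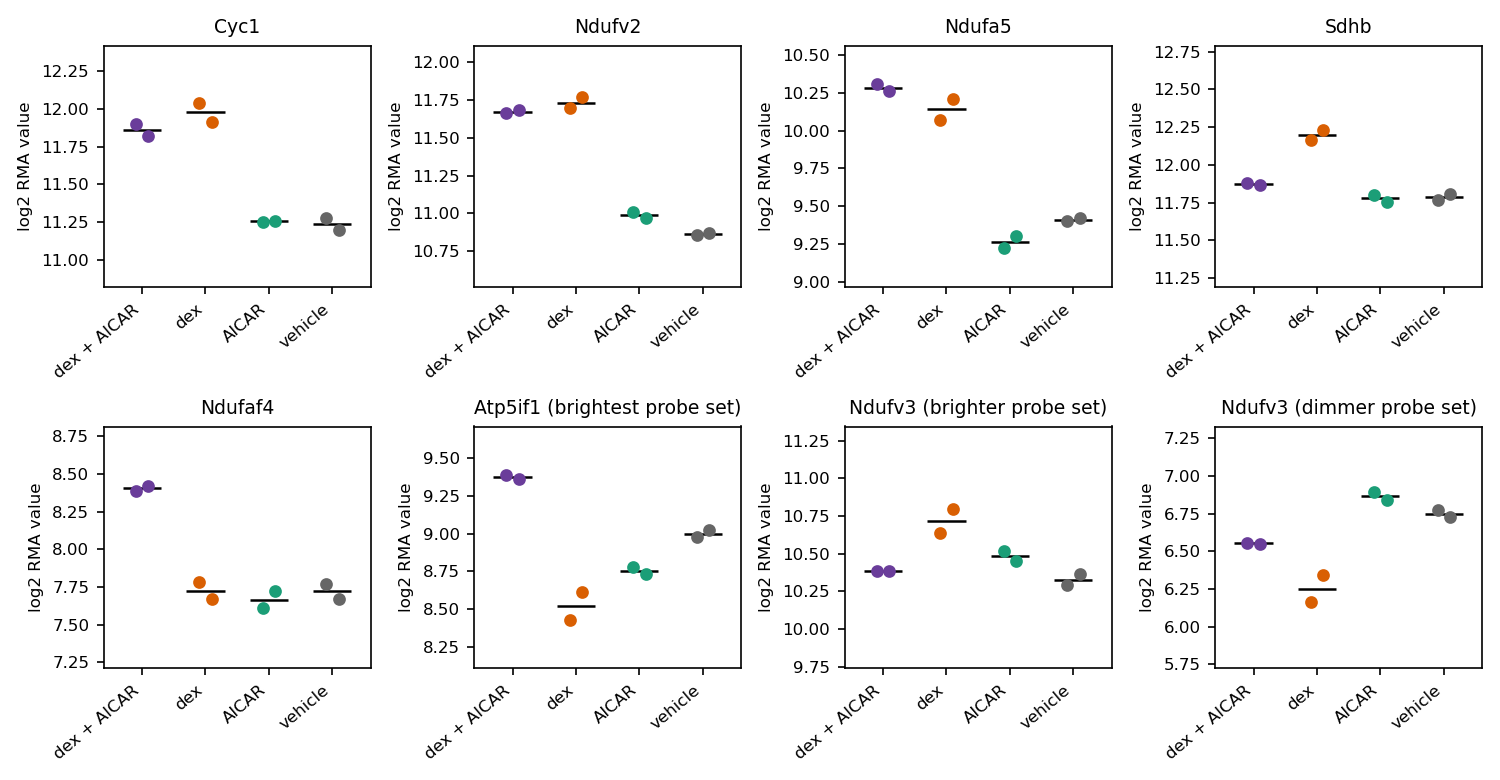
Log2 RMA value (vertical axis, each panel spanning 1.6 units) on each array by group, for 6 member genes and both probe sets of Ndufv3; bars are group means of 2 arrays. Cyc1, Ndufv2 and Ndufa5 are high in both groups with dexamethasone, Sdhb is highest after dexamethasone alone (12.17 and 12.23), and Ndufaf4 and Atp5if1 are highest after the combination.

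Atp5if1 encodes the inhibitor that binds the ATP synthase and blocks ATP hydrolysis when the proton gradient collapses. Its brightest probe set read 9.39 and 9.36 after the combination, 8.43 and 8.61 after dexamethasone and 8.78 and 8.73 after AICAR, against 8.97 and 9.02 in vehicle. The 4 groups did not overlap, with the combination above vehicle and each single treatment below it. It fell by 0.48 after dexamethasone (limma, adjusted p = 0.00392), was at -0.24 after AICAR (adjusted p = 0.0877) and rose by 0.37 after the combination (adjusted p = 0.00898). The rise after the combination was lost without the first vehicle or first combination array (adjusted p up to 0.0583). The interaction was 1.10 ± 0.116 (adjusted p = 0.000506). The other 2 probe sets of Atp5if1 read between 4.48 and 5.87 and did not show this pattern. One was 0.49 higher after AICAR (adjusted p = 0.0426), a call lost without any one vehicle, AICAR or combination array (up to 0.187), and neither was called in the interaction.

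Of the 6 assembly factors of complex I, which build the enzyme without staying in it, 5 were called higher than vehicle after the combination, and 3 of these were also called higher than after dexamethasone alone. Ndufaf4 read 8.39 and 8.42 after the combination, 7.78 and 7.67 after dexamethasone and 7.61 and 7.72 after AICAR, against 7.77 and 7.67 in vehicle. The combination stood apart and the other 3 groups overlapped. The difference from vehicle was 0.68 ± 0.081 after the combination (limma, adjusted p = 0.000329) and 0.00 after dexamethasone, and the combination exceeded dexamethasone alone by 0.68 (adjusted p = 0.000574). Ndufaf8, which works with Ndufaf5, read 8.24 and 8.28 after the combination, 7.75 and 7.91 after dexamethasone and 7.70 and 7.75 after AICAR, against 7.70 and 7.81 in vehicle. Ndufaf5, which hydroxylates a core subunit, read 7.22 and 7.26 after the combination, 6.86 and 6.87 after dexamethasone and 6.80 and 6.80 after AICAR, against 6.79 and 6.75 in vehicle. In both genes the combination arrays lay above all others, and the difference from vehicle was 0.50 and 0.47. Ndufaf3 (0.30) and Ndufaf7 (0.52) were also higher than vehicle after the combination, and Ndufaf1 was not called (-0.15). Ndufaf7 stood at 0.25 after dexamethasone and 0.23 after AICAR, neither called. The call of Ndufaf7 was lost without the first combination array (adjusted p = 0.0512), and that of Ndufaf3 without any one vehicle, AICAR or combination array (up to 0.189). Over dexamethasone alone, the combination was called higher for 3 of 6, against 14.0% of all genes, and for 2 of 6 without the second combination array. In the interaction 3 of 6 were called, but 1 after cyclic loess and 1 without the second vehicle, first dexamethasone, either AICAR or the first combination array.

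The question of the design, whether AICAR alters the response to dexamethasone, was put to the members in pairs of groups that share no array. The dexamethasone effect over vehicle and the dexamethasone effect over AICAR correlated at 0.54 across the 97 member probe sets, against 0.49 across all probe sets, and these probe sets are not independent replicates. Of the members, 58 were higher after dexamethasone plus AICAR than after AICAR and 2 were lower, where the whole array had 15.9% higher and 14.9% lower (30.8% in all, and 47.0% of the bright ones). The members called higher in both numbered 34, of the 40 without AICAR and the 58 with it. The matching overlap over all probe sets was not counted, so 34 has no reference and is not a measure of agreement. The interaction, the difference between the 2 effects, was called for 11 of 97 members, 9 higher and 2 lower, against 8.63% and 7.02% of all probe sets (15.6% in all), and the direct contrast of the combination with dexamethasone alone was called for 9 of 97, against 20.1% (10.2% higher, 9.91% lower) and 33.1% of the bright ones. The members' shares were 9.3% in the direct contrast and 11.3% in the interaction, below the array's. With a trended and robust prior they were above it, at 36.1% against 25.1% and at 42.3% against 21.1%. Most members are bright, and the share of bright probe sets under that prior was not counted. Tested among bright probe sets alone, the members' shares were below the array's, at 20.9% against 43.7% and at 29.1% against 36.6%. The 9 comprised 7 higher and 2 lower. They became fewer without any one dexamethasone or combination array, as did calls over the whole array. No subunit of complexes III, IV or V was called in it by limma, and at an unadjusted p under 0.05 there were 0 of 8, 0 of 17 and 3 of 15. With the trended and robust prior 1 gene of complex III, 2 of complex IV and 5 of complex V were called. The interaction calls became fewer on leaving out any one array, and so did those over the whole array. The members' median interaction then ran from 0.0472 to 0.1257. The members' median interaction was 0.09, and -0.0078 after cyclic loess.

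**Figure D4:**
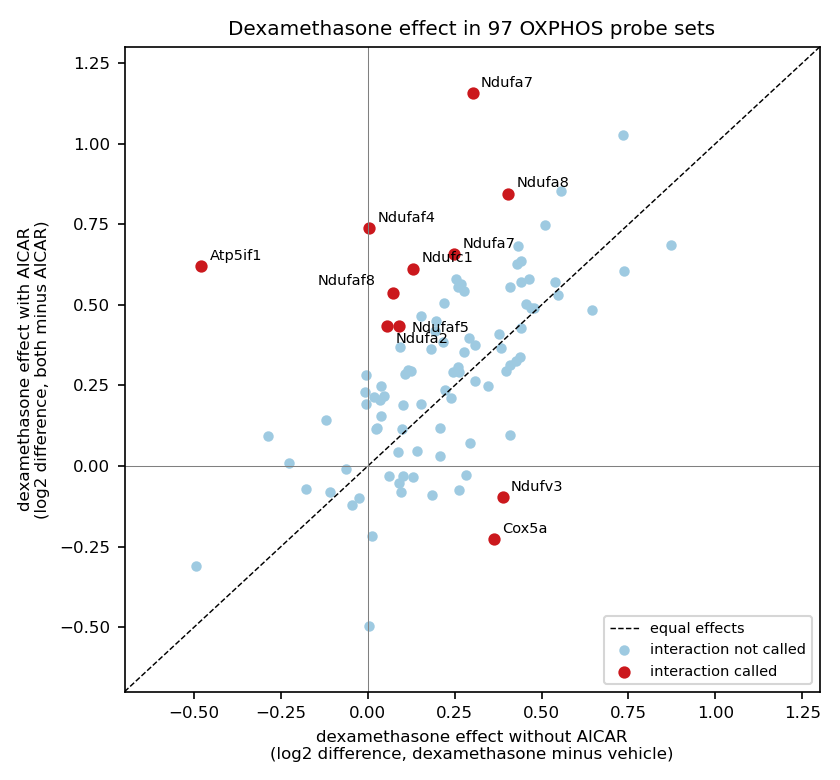
Dexamethasone effect with AICAR (vertical axis, combination minus AICAR) against that without (horizontal axis, dexamethasone minus vehicle), both as log2 differences, for the 97 member probe sets; the dashed line marks equal effects. The 11 red points passed the interaction test, 9 of them above the line, with Atp5if1 at 0.62 with and -0.48 without AICAR.

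The subunit genes that passed the interaction were 5 accessory subunits of complex I and Cox5a. With the trended and robust prior 19 accessory genes of complex I were called higher and 1 lower. That prior called the interaction for 21.1% of all probe sets, with 12% called higher. Ndufa8 read 11.57 and 11.51 after the combination, 11.23 and 11.28 after dexamethasone and 10.69 and 10.70 after AICAR, against 10.85 and 10.85 in vehicle. The groups did not overlap, and the dexamethasone effect was 0.84 with AICAR and 0.40 without it (interaction 0.44, limma, adjusted p = 0.0185). Ndufc1 read 11.70 and 11.69 after the combination, 11.50 and 11.48 after dexamethasone and 11.08 and 11.09 after AICAR, against 11.41 and 11.30 in vehicle. Its dexamethasone effect was 0.61 with AICAR and 0.13 without. Ndufa7 passed with both probe sets, at 0.41 and 0.85, and Ndufa2 passed at 0.38. The brighter probe set of Ndufv3 (-0.48) and Cox5a (-0.59) passed in the other direction. The interaction calls of Ndufa2 and of the brighter Ndufa7 probe set were lost without any one of 8 and of 7 arrays (adjusted p up to 0.131 and 0.116), those of Ndufa8, Ndufc1 and Ndufv3 without any one of 5, 4 and 5 (up to 0.0771, 0.056 and 0.078), and that of Cox5a without any one of 6 (up to 0.107). By gene, 0 subunits of complex I were called in the interaction without the first vehicle, first AICAR or first combination array.

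Genes that serve the complexes but lie outside the rule were counted from lists chosen with earlier results of these data known. Mitochondrial ribosomal proteins, which translate the mitochondrially encoded subunits, numbered 73. After the combination 32 were higher than vehicle (43.8%, against 15.9% of all genes) and 3 lower (4.11%, against 18.4%), with a median of 0.21. After dexamethasone 4 were higher (5.48%, against 8.37%) and 7 lower (9.59%, against 14.3%), with a median of -0.02. After AICAR 2 were higher (2.74%, against 6.22%) and 12 lower (16.4%, against 8.96%), with a median of -0.13. With the trended and robust prior 12 were higher and 12 lower after dexamethasone, and 29 were lower after AICAR. That prior called 23.4% of all probe sets after dexamethasone and 19.5% after AICAR. The interaction was called higher for 35 of 73 and lower for 0, against 11.9% of all genes called higher. Mrpl49 had the largest interaction among them, at 1.12 (adjusted p = 0.000334), and Mrpl12, which also binds the mitochondrial RNA polymerase, was 0.78 higher after the combination. Mrpl14 fell after dexamethasone (-0.62) and after the combination (-0.84). After cyclic loess the median for dexamethasone was 0.0051, with 3 lower, and 7 were lower after AICAR. Without the first AICAR array 3 were lower after AICAR. The interaction count was 24 after cyclic loess, 23 without the second vehicle or first combination array, and 21 without the first AICAR or second combination array. The 32 became 17 without the first combination array and 19 without the first vehicle or second combination array.

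A list of 39 other assembly and import factors of the complexes showed 18 higher (46.2%, against 15.9% of all genes) and 1 lower (2.56%, against 18.4%) after the combination. It showed 3 higher (7.69%, against 8.37%) and 0 lower (against 14.3%) after dexamethasone, and 1 higher (2.56%, against 6.22%) and 6 lower (15.4%, against 8.96%) after AICAR. The 3 were 1 without the second vehicle array. The 6 were 1 without the first AICAR array, 3 without either vehicle array and 4 without the second AICAR array, and 12 with the trended and robust prior, which called 8 higher and 4 lower after dexamethasone. The trended and robust prior called 19.5% of all probe sets after AICAR and 23.4% after dexamethasone. Sdhaf4, an assembly factor of complex II, read 9.37 and 9.40 after the combination, 8.21 and 8.24 after dexamethasone and 7.78 and 7.90 after AICAR, against 8.11 and 7.97 in vehicle. The combination stood far above the rest, 1.34 over vehicle (limma, adjusted p = 6.53e-06). Cox17, the copper chaperone of complex IV, was 0.71 higher after the combination and 0.32 lower after AICAR, and Sdhaf1 was 0.70 higher after the combination. Lrpprc, which stabilises mitochondrial messenger RNA, fell after the combination (-0.74) and after AICAR (-0.60). The interaction was called for 16 higher and 2 lower, but for 7 higher after cyclic loess. Leaving out 1 array gave between 4 and 12 higher. The 18 became 11 without the first combination array.

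**Figure D5:**
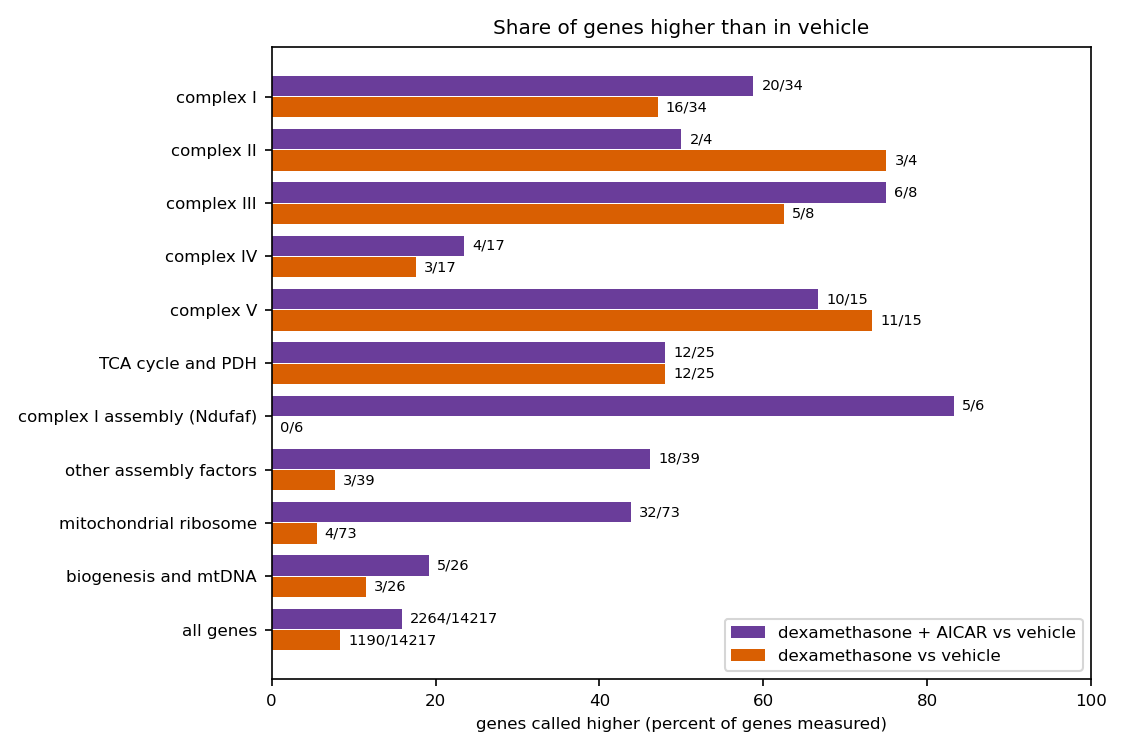
Percent of measured genes called higher than vehicle (horizontal axis from 0) after dexamethasone plus AICAR and after dexamethasone, for the complexes, related lists and all genes (rows); bar ends give counts. The tricarboxylic acid cycle is at 12 of 25 in both groups, and the complex I assembly factors and the mitochondrial ribosome are at 5 of 6 and 32 of 73 after the combination and at 0 of 6 and 4 of 73 after dexamethasone.

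Enzymes of the tricarboxylic acid cycle and pyruvate dehydrogenase, which feed the chain, numbered 25. After the combination 12 were higher (48%, against 15.9% of all genes) and 6 lower (24%, against 18.4%), and after dexamethasone 12 were higher (48%, against 8.37%) and 1 lower (4%, against 14.3%). Mdh1, the cytosolic malate dehydrogenase of the shuttle that carries reducing equivalents, was 0.76 higher after the combination and 0.91 higher after dexamethasone, and citrate synthase (Cs) was 0.66 higher after the combination. Pdhb, a pyruvate dehydrogenase subunit, was 0.92 higher after dexamethasone and 0.78 lower in the combination than after dexamethasone alone. Pdk4, a kinase that switches pyruvate dehydrogenase off, fell after the combination (-2.20) and after dexamethasone (-1.15). The interaction was called lower for 8 of the 25 (32%, against 8.05% of all genes) and higher for 0, or for 10 and 2 with the trended and robust prior. That prior called it for 21.1% of all probe sets, with 12% called higher.

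Regulators of mitochondrial biogenesis and mitochondrial DNA expression, 26 genes, moved in both directions. After the combination 5 were higher and 4 lower (19.2 and 15.4%, against 15.9 and 18.4% of all genes). After dexamethasone 3 were higher and 5 lower (11.5 and 19.2%, against 8.37 and 14.3%), and after AICAR 0 were higher and 8 lower (30.8%, against 8.96%). The 5 higher after the combination were 3 without the second vehicle array or either combination array, and 8 after centring or with the trended and robust prior. The 8 lower after AICAR were 2 without the first AICAR array, 3 without either vehicle array, 4 without the second AICAR array or after cyclic loess, 5 without either combination array, and 14 with the trended and robust prior. The 5 lower after dexamethasone were 3 without any one vehicle or dexamethasone array. The trended and robust prior called 15.2% of all probe sets higher after the combination, and 19.5% in either direction after AICAR. Ppargc1a, the coactivator that drives respiratory genes, was 0.51 higher after the combination and 0.57 higher after dexamethasone. Tfam, which packages and transcribes mitochondrial DNA, read 8.40 and 8.42 after the combination, 8.23 and 8.30 after dexamethasone and 8.38 and 8.38 after AICAR, against 8.65 and 8.72 in vehicle. All treated arrays lay below vehicle, by 0.28, 0.42 and 0.30, and all 3 differences were called. Pprc1, a related coactivator, fell after dexamethasone (-0.85) and after AICAR (-0.73) and had the largest interaction of the list, 1.61 (adjusted p = 0.000159).

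Promoter sequence was examined because the subunits rose together. RefSeq windows of the GRCr8 assembly, from 250 bases before to 50 after the annotated start, were at hand for 78 of the 87 genes. Nuclear respiratory factors and estrogen-related receptors are known regulators of respiratory genes, and the glucocorticoid receptor binds a palindrome. Both strands were searched, with N for any base, for GCGCAN followed by GCGC (NRF1), CCGGAAG (the ETS site read by NRF2), AANATGGCG (YY1), TNAAGGTCA (estrogen-related receptors), CCAAT (the CCAAT box) and GNACANNN followed by TGTNC (glucocorticoid receptor). The ETS and YY1 letters can overlap by sharing AAG. Stretches of 120 bases, read 5′ to 3′ on the gene's strand, are printed with the match in capitals. They end at the base before the start, except that of Ndufaf4, which lies further upstream. They show 3 genes that rose after dexamethasone, 1 of the assembly factors called after the combination alone, and a subunit that was called in neither. Every printed stretch holds a match, whereas NRF1 letters were in only 7 of 34 genes called higher after dexamethasone. Ndufa5 lies at chr4:53971236-53971355 (minus strand), Atp5po at chr11:44657484-44657603 (minus), Atp5mc3 at chr3:79220665-79220784 (minus), Ndufaf4 at chr5:43401595-43401714 (plus) and Ndufa11 at chr9:1637494-1637613 (plus). The capitals mark the NRF1 letters, except in Atp5mc3, where they mark the estrogen-related receptor letters, which read on the opposite strand.
Ndufa5: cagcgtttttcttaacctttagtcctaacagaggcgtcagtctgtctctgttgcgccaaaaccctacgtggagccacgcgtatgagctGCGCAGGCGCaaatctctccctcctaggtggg
Atp5po: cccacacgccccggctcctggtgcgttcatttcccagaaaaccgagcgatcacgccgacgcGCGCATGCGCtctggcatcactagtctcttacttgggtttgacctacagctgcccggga
Atp5mc3: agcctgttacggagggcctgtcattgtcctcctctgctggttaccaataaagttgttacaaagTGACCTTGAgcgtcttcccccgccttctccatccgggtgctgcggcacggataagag
Ndufaf4: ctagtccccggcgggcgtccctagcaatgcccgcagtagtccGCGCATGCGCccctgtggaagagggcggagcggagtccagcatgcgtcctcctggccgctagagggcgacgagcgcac
Ndufa11: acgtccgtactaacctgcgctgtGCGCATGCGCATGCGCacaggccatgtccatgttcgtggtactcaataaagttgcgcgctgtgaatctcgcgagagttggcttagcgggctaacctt

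The NRF1 letters were in 15 of 78 member windows (19.2%), against 4.25% of all 33469 windows. That reference was not matched to the members for expression in liver or base content. The ETS letters were in 28.2% of member windows against 8.75% of all, and the YY1 letters in 24.4% against 3.01%, while CCAAT was in 34.6% against 37.5%. The estrogen-related receptor letters were in 3 member windows (3.85%, against 1.2%), those of Atp5mc3, Ndufb4 and Sdhd. The glucocorticoid receptor letters were in 0 of 78, against 0.439% of all windows, and the absence says only that these letters are not in this window. NRF1 was in 7 of 34 genes called higher after dexamethasone (20.6%) and in 8 of 44 that were not (18.2%). The ETS letters were in 32.4 and 25% of these genes and the YY1 letters in 20.6 and 27.3%. Ndufa11, whose window holds overlapping NRF1 matches, was not called by limma after dexamethasone (0.03) or after the combination (0.23, adjusted p = 0.0543).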

How the data were processed

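The values are deposited log2 expression values, 1 per probe set and array, which the authors made with RMA in affy, as the submitters' processing notes name them without a version. RMA removes background, forces all arrays onto 1 distribution and summarises probes, so a shift shared by most genes would not be visible and changes of dim probe sets are understated. Of 31099 probe sets, 57 array controls were left out. Names came from the platform annotation: 20826 probe sets had 1 symbol, 436 several and 9780 none here. Promoter windows came from RefSeq (GRCr8), matched by gene ID.

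Differences were computed with limma 3.58.1 in R 4.3.3 over all 8 arrays (4 residual and 4.58 prior degrees of freedom). The 6 comparisons set every treatment against vehicle and the combination against both single treatments, with the interaction as the last. The code was tested on simulated data. The number of arrays limits the precision. Named were a panel of subunits, up to 3 called genes per complex with the largest rise and fall, genes called in the interaction, and genes whose probe sets disagree. The members and lists were chosen with earlier results of these data known. Alternatives were cyclic loess, centring on brighter probe sets, testing bright probe sets alone, a robust prior with a trend, fitting 2 groups at a time, a block for replicate number, gene means, and leaving out each array. Deviations of same-numbered arrays correlated between -0.04 and 0.16, so the numbers were not taken as pairs. Figures were drawn with matplotlib 3.10.9 in Python 3.11.15.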

Additional observations from a re-analysis of the deposited data

Results flagged for a closer look

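The dexamethasone effect differed with and without AICAR, by the interaction term of the limma fit, for 11 member probe sets. Values are log2 differences, the effect with AICAR minus that without. It was larger with AICAR for Atp5if1 (brightest probe set, 1.0993), Ndufa7 (0.8549 in the dimmer and 0.4086 in the brighter probe set), Ndufaf4 (0.7336), Ndufc1 (0.4822), Ndufaf8 (0.4648), Ndufa8 (0.4406), Ndufa2 (0.3777) and Ndufaf5 (0.3467). It was smaller with AICAR for Cox5a (-0.5885) and for the brighter probe set of Ndufv3 (-0.4848). Of these 11 calls, 2 held under every alternative and 5 under every alternative that kept all arrays. The share of members called was 11.3%, against 15.6% of all probe sets, and 42.3% against 21.1% with a trended and robust prior. Among bright probe sets tested alone it was 29.1% against 36.6%.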

How the results depend on the processing

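Of the members called, 24 of 42 after dexamethasone, 31 of 51 after the combination, 40 of 60 in the combination over AICAR, 3 of 9 in the combination over dexamethasone, 2 of 11 in the interaction and 0 of 11 after AICAR stayed called under every alternative. Leaving out 1 array in turn gave 27 to 36 calls after dexamethasone, 32 to 53 after the combination, 0 to 9 after AICAR, 3 to 9 for the combination over dexamethasone, 43 to 59 over AICAR and 3 to 8 for the interaction. The median log2 differences then ran from 0.2034 to 0.2439, from 0.2486 to 0.2942, from -0.0442 to -0.0319, from 0.0248 to 0.0762, from 0.2866 to 0.3249 and from 0.0472 to 0.1257 in the same order. Cyclic loess gave medians of 0.2369 for the combination and 0.0044 for AICAR over vehicle, 0.0033 for the combination over dexamethasone, 0.2048 over AICAR and -0.0078 for the interaction. Centring gave 0.2635 for dexamethasone, 0.3272 for the combination and 0.0065 for AICAR over vehicle, and 0.0325 for the interaction. Centring put 57.6% of all calls after dexamethasone on the higher side, against 47.0% as deposited, and 56.1% against 42.2% after AICAR. Testing bright probe sets alone gave a median of 0.3463 for the combination over AICAR. It gave 23 calls for AICAR, 18 for the combination over dexamethasone and 25 for the interaction. These were 26.7, 20.9 and 29.1% of the members tested, against 32.7, 43.7 and 36.6% of all bright probe sets. The trended and robust prior gave 37, 35 and 41 calls in these 3 comparisons, where 19.5%, 25.1% and 21.1% of all probe sets were called. The fit of only the groups compared gave 2 calls for AICAR (2.06% of members, against 7.55% of all probe sets). The fit with the replicate block gave 6 calls for AICAR (6.19%, against 11.4%). No other member count moved by over 1.5 times under the block. With gene means, the sign turned for Ndufv3 after dexamethasone (-0.0536) and in the combination over dexamethasone (-0.0143), and for Atp5if1 in the combination over AICAR (-0.0315); the mean includes probe sets that disagree. No other called member changed sign. The cause of the other changes was not tested.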

Other observations

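Carriers and porins that move nucleotides, phosphate and metabolites across the mitochondrial membranes, 22 genes, were 8 higher and 3 lower than vehicle after the combination (36.4 and 13.6%, against 15.9 and 18.4% of all genes), 5 higher and 3 lower after dexamethasone (22.7 and 13.6%, against 8.37 and 14.3%), and 3 higher and 1 lower after AICAR (13.6 and 4.55%, against 6.22 and 8.96%). The 8 were 5 without either combination array, the 5 were 3 without the second vehicle or second dexamethasone array, and the 3 were 1 without the first vehicle or first AICAR array and 6 with a trended and robust prior. The trended and robust prior called 7.76% of all probe sets higher after AICAR. Slc25a3, the phosphate carrier that supplies the ATP synthase, was 0.62 higher after the combination and 0.46 higher after dexamethasone (limma, adjusted p = 0.000343 and 0.00288). Slc25a5, an ADP and ATP exchanger, was 0.41 and 0.48 higher. Ucp2, an uncoupling protein that macrophages also express, fell after the combination (-0.51) and after dexamethasone (-0.58) and rose after AICAR (0.41); the part of the macrophage markers in this was not tested.

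Enzymes of ubiquinone synthesis and donors of electrons to ubiquinone, 22 genes, were 6 higher and 5 lower after the combination (27.3 and 22.7%, against 15.9 and 18.4% of all genes), 4 higher and 2 lower after dexamethasone (18.2 and 9.09%, against 8.37 and 14.3%), and 1 higher and 1 lower after AICAR (4.55% each, against 6.22 and 8.96%). The 6 were 3 without the first combination array, and 4 without the second, while the 4 after dexamethasone were 2 without any one vehicle or combination array or the second dexamethasone array. Sqor, which passes electrons from sulphide to ubiquinone, was 4.28 higher after the combination and 2.65 higher after AICAR (limma, adjusted p = 2.64e-07 and 3.15e-05). Coq8a, an atypical kinase needed for ubiquinone synthesis, fell after the combination (-1.48) and after dexamethasone (-0.37).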
